A study of Mus musculus with 6 samples.

Results

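On the mouse transcriptome array 1.0, 33142 of 65956 transcript probe sets carry no gene symbol, and 2517 of these had a mean log2 signal of at least 8 over the 6 arrays. These 2517 well-expressed probe sets without gene symbol, called members here, make up 7.59% of the probe sets without symbol and 3.82% of all transcript probe sets. They were chosen by their mean signal over both groups, so a probe set could also enter through 1 group alone. The sham mean was under 8 in 76 members and the MI mean in 86, and both means reached 8 in the other 2355. A probe set is a group of short oligonucleotides that read 1 stretch of transcript. The RNA was left ventricular, from C57BL/6 males 4 weeks after their operation, with 3 samples from the peri-infarct region after myocardial infarction (MI, by ligation of the left anterior descending coronary artery) and 3 from the corresponding region after a sham operation. Each sample was hybridized to 1 array. The sources do not say that each sample came from its own mouse, so p-values measure the spread between these samples, which may be partly technical.

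Probe sets without a symbol on such an array can read long non-coding RNAs, introns of unspliced precursor RNA, pseudogenes, repeats or extensions of known genes beyond their annotated ends. Many mammalian genes give rise to stable transcripts of this kind, and in the heart some long non-coding RNAs are known to be transcribed beside or opposite sarcomere genes. After infarction, fibroblasts deposit collagen in the peri-infarct region while the surviving cardiomyocytes change their programme of contractile, channel and metabolic genes. The symbol table listed no probe set for 1216 of 21900 protein-coding RefSeq genes (5.55%), so a member may also belong to a coding gene.

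The name of a probe set gives its chromosome and a running number, and the running number was checked against the order of RefSeq genes. Over 40 blocks (1 for each strand of each chromosome) and 29895 genes, the next gene by number lay further along the chromosome in at least 96.3% of steps, and the median rank correlation of number and position was 0.976 (lowest 0.755). Members with neighbouring numbers are therefore described below as neighbours, although their distance in bases is not known here. Before and after a gene mean a lower and a higher number. Numbers rise with position on both strands, so after a gene of the minus strand does not mean downstream of it. The nearest genes by number on both sides along the same strand were described for 1901 members. They were not described for 503, and 113 had no place in this order. No sequence of a member is held in the sources used here, so none is printed.

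Before the comparison, the arrays were compared with each other. MI 3 stood apart from MI 1 and MI 2 in 45 members (1.79%), where it read at least 2 above their mean on the log2 scale, against 8 of 4555 protein-coding probe sets of the same signal (0.176%) and 282 of 296 small nuclear RNA probe sets (95.3%). The largest case, TC0800000135, read 12.12, 9.11 and 8.60 in sham against 10.54, 10.59 and 17.27 in MI. TC0900001596 read 13.82 in MI 3 against 8.89 and 7.22 in the other MI arrays, and TC0700001613 read 13.08 against 7.94 and 6.77. In 22 of the 45 members sham 1 also lay at least 1 above the other sham arrays. None of the 45 was called in the comparison. Counts without these arrays stand beside the main counts.

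Markers of the cell types in the tissue differed between the groups. Of 9 measured fibroblast markers 7 were higher in MI, with a summed log2 signal of 16.95 to 17.06 in sham and 18.45 to 18.88 in MI, and 3 of 9 macrophage markers were higher (12.80 to 13.53 against 14.79 to 15.11). Of 13 cardiomyocyte markers 1 was called higher and none lower, and their summed signal was 22.40 to 22.50 in sham and 22.51 to 22.59 in MI. The median log2 fold change of the 13 was -0.09. One of them, Actc1, read the highest value of every array, where a difference may not be visible. No endothelial marker (of 7) and no smooth muscle or pericyte marker (of 8) was called, and the sum of the latter was 17.32 to 17.51 against 16.92 to 17.04. One lymphocyte and 1 skeletal muscle marker were higher, with most lymphocyte markers (6 of 7) within the range of the background controls, and no adipocyte, red blood cell, Schwann cell or atrial marker was called. The summed atrial markers ranged from 7.39 to 11.86 in sham and from 7.43 to 7.52 in MI. The part of these cell types in the results below was not tested, and in bulk tissue fewer cells of a type and less RNA per cell cannot be told apart.

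Of the 2517 members, 94 were higher and 78 were lower in MI (limma, Benjamini-Hochberg adjusted p under 0.05 over 32979 probe sets). The raised share of 3.73% stood beside 2.97% of all probe sets tested, and the lowered share of 3.10% beside 3.64%. Among the 6469 probe sets with 1 gene symbol and the same signal limit, 3.49% were higher and 8.13% were lower. At least 2-fold changes were called for 44 members upwards and 37 downwards, against 1.43% and 0.873% of all probe sets tested and 2.03% and 1.93% of those with 1 symbol. The smallest called change was 0.43 on the log2 scale in either direction, and the median called change was 0.97 upwards and -0.99 downwards. In all 94 raised and all 78 lowered members the groups did not overlap, which a call with 3 against 3 arrays all but requires. Over all probe sets tested, the MI values were all higher in 15% and all lower in 16.8%. Of the raised members 12 reached the signal limit only through MI, and of the lowered members 21 only through sham, so their calls are partly fixed by the choice. Among the 2355 members with both group means at 8 or more, 82 were called higher and 57 lower.

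These counts depended on single arrays. In 66 of the 94 raised members MI 3 was the lowest of the MI arrays, and in 50 of the 78 lowered members it was the highest of them. Without MI 3, 200 members were called higher and 193 lower, and without sham 1 the counts were 13 and 11. With both arrays left out they were 209 and 199. With sham 2, sham 3 or MI 1 left out, limma called 0 members in either direction, and at an unadjusted p under 0.05 it had 257, 303 and 282 higher and 199, 214 and 188 lower. Without MI 2 the counts were 4 and 1. After a further quantile normalization between arrays, 46 members were called higher and 113 lower.

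**Figure D1:**
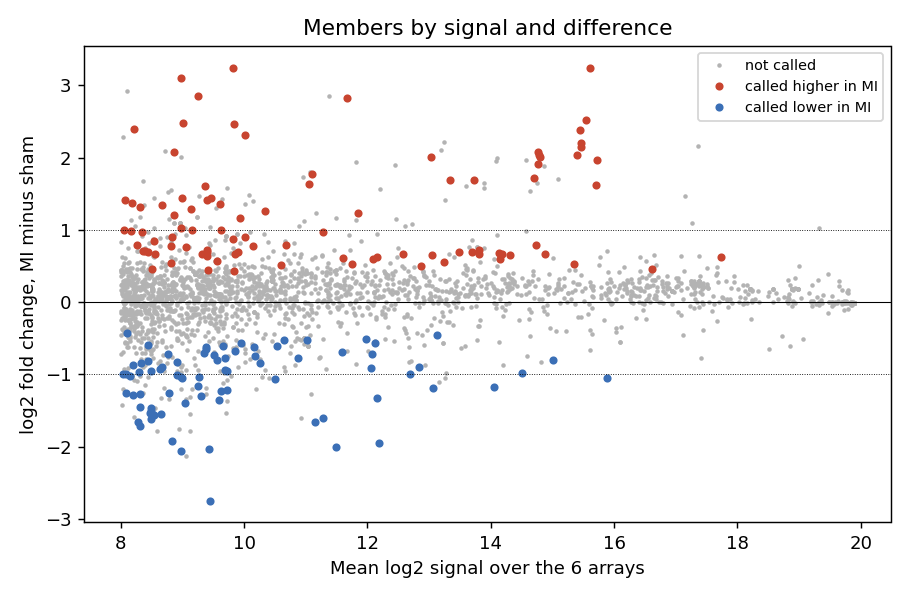
Each point is 1 of the 2517 members, with its mean log2 signal over the 6 arrays on the x axis and its log2 fold change (MI mean minus sham mean) on the y axis. Red and blue points are the 94 members called higher and the 78 called lower, and the dotted lines mark a 2-fold difference. Only 2 called members lie above a signal of 16.

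The median log2 fold change over the members was 0.11 (quartiles -0.07 and 0.29), against 0.01 over all probe sets tested and -0.05 over those with 1 symbol and the same signal. The 3 MI values all exceeded the 3 sham values in 559 members (22.2%), against 15% of all probe sets tested, and were all lower in 261 (10.4%), against 16.8%. The members' median was -0.01 after quantile normalization, so its sign rests on the scaling. Signals spread less in sham than in MI, with a median SD over the members of 0.136 and 0.216 (n = 3 each), close to 0.129 and 0.217 in the probe sets with 1 symbol.

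Called members were unevenly placed along the range of signal. Between a mean signal of 8 and 9 there were 758 members, of which 23 were called higher and 32 lower. Between 14 and 16 there were 188 members, 20 of them called higher and 4 lower, while 9 of 436 probe sets with 1 symbol were called higher and 29 lower in the same range. Of these 20 members, 10 belong to the 2 sets of nearly equal values described below, which may not be separate measurements. Of the 409 members above 16, 2 were called higher and none lower. The chromosomes held 70 to 200 members each among the autosomes, and called members lay on 20 chromosomes in either direction. On chromosome 13, 10 of 120 members were higher and 2 lower, and on chromosome 8, 5 of 136 were higher and 9 lower. These chromosomes held the most raised and the most lowered members. Over all probe sets tested, 2.97% were higher and 3.64% lower. The raised ones on chromosome 13 include TC1300001559 and TC1300002159, both from 1 of the 2 sets of nearly equal values. The mitochondrial chromosome had 19 members among its 30 probe sets (63.3%), and none was called.

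Many members were not separate measurements. In 49 groups, 371 members (14.7%) had the same values as another member on all 6 arrays, so that the 2517 members held 2195 distinct sets of values. The largest group had 63 members on 17 chromosomes, all at 8.35, 8.43 and 8.47 in sham and 8.36, 8.21 and 8.54 in MI. The highest value of each array (19.79 to 19.93) was shared by 47 probe sets, of which 30 were members and 12 carry a single symbol. One of these is Actc1, the cardiac alpha actin of the sarcomere. The 5 members listed first among those of highest signal, TC0100002077, TC0100002078, TC0200002613, TC0200002916 and TC0200003031, are among the 30. A difference may not be visible at the top of the scale, so no fold change is given for them. No called member belonged to a group of identical values.

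The largest rise was on chromosome 1, where 3 members with consecutive numbers rose together. TC0100003193 read 13.90, 14.21 and 13.86 in sham and 17.51, 17.45 and 16.74 in MI, a log2 fold change of 3.25 ± 0.23 (SE, adjusted p = 0.00827, limma) or 9.49-fold. Its neighbour TC0100003194 rose from 8.07, 8.05 and 8.45 to 12.02, 11.87 and 10.41 (3.25 ± 0.43, adjusted p = 0.0202), and TC0100003192 from 7.77, 7.99 and 7.70 to 10.86, 11.05 and 10.14 (2.86 ± 0.25, adjusted p = 0.0114). Groups that do not overlap were a condition for choosing these members, and MI 3 was the lowest MI array each time.

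The other members among the 10 highest rose 5.20-fold or more. The sham means of TC1000001894, TC1100000547 and TC0100003192 were under 8 (7.42, 7.02 and 7.82), so these entered through MI. TC1000001894 read 7.23, 7.53 and 7.51 in sham and 10.98, 11.40 and 9.19 in MI (log2 fold change 3.10 ± 0.56, adjusted p = 0.0329). TC0200004525 read 10.14, 10.30 and 10.35 against 13.35, 13.61 and 12.30 (2.82 ± 0.33, adjusted p = 0.0162). In both, MI 3 lay between the sham arrays and the other MI arrays. TC0900001232 and TC1100000547 rose by 2.46 ± 0.43 and 2.40 ± 0.39 (adjusted p = 0.0306 and 0.0265), and the genes beside these 4 members were not described here.

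Among the raised members of high signal, several on different chromosomes had nearly the same values. TC1400000338 on chromosome 14, which lies between Oxnad1 (-0.57) and Msmb (-0.06), read 14.46, 14.23 and 14.15 in sham and 17.23, 17.63 and 15.57 in MI, a log2 fold change of 2.53 ± 0.52 (adjusted p = 0.0444). Only 5 other probe sets of the array lay within 0.6 of it on every array, and all 5 were members called higher, on chromosomes 2, 6, 7 and 13. Their log2 fold changes ran from 1.97 to 2.38. This direction was fixed by their nearness to the reference, and their calls were largely so (2.97% of all probe sets tested were called higher). The nearest, TC0200003100, read 14.46, 14.21 and 14.11 in sham and 17.07, 17.42 and 15.44 in MI (2.38 ± 0.50, adjusted p = 0.0481).

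A second set of this kind had slightly lower signals. TC1900000899 read 13.87, 13.77 and 13.65 in sham and 16.10, 16.48 and 14.81 in MI (2.03 ± 0.42, adjusted p = 0.0447), and 6 other members on chromosomes 2, 4, 8, 11 and 13 lay within 0.6 of it on every array. Of these 7 members, 4 were called higher, against 2.97% of all probe sets tested, and the log2 fold changes of the 7 ran from 1.54 to 2.08. Here too the direction was fixed by the nearness to the reference. No probe set with a symbol was within 0.6 of either reference. In these 13 members MI 3 was the lowest of the MI arrays, which the nearness to the references also fixed. Probe sets that share oligonucleotides or near-identical copies would not be independent, and whether these share any was not tested. Both sets were picked after their values were seen.

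**Figure D2:**
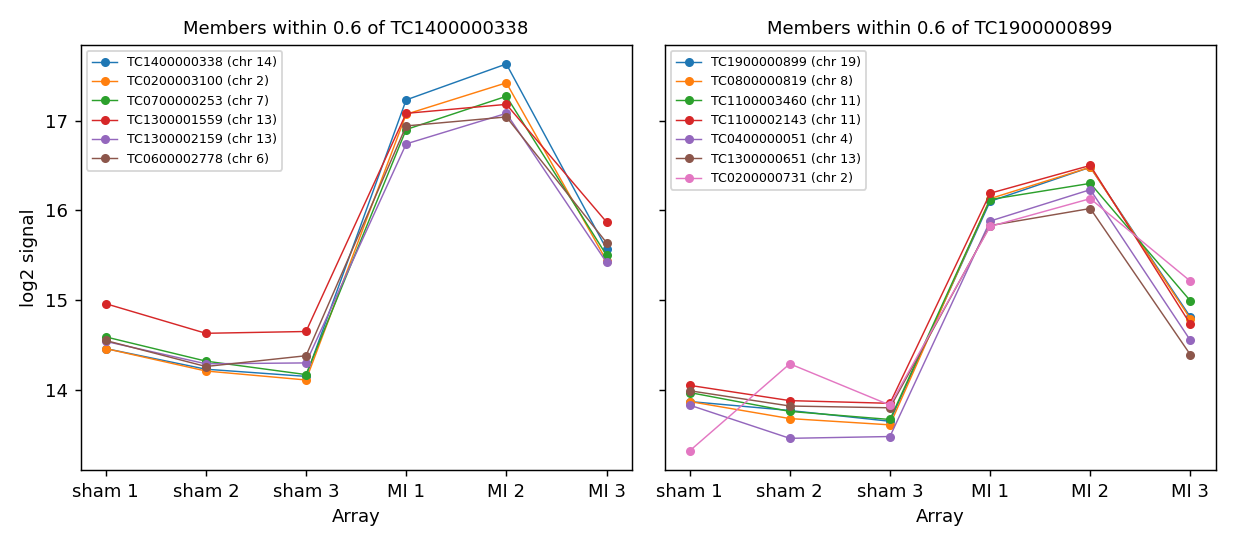
Log2 signal (y axis) on each of the 6 arrays (x axis) for the 6 members within 0.6 of TC1400000338 (left) and the 7 members within 0.6 of TC1900000899 (right), with 1 line for each member and its chromosome in the legend. The lines lie close together in both panels, and MI 3 falls between the sham arrays and the other MI arrays.

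The largest fall was that of TC1300001152 on chromosome 13. It read 10.73, 10.83 and 10.89 in sham and 7.84, 7.34 and 9.03 in MI, a log2 fold change of -2.75 ± 0.41 (adjusted p = 0.0234) or 6.72-fold lower. Cd180, a surface receptor of the Toll-like receptor family on immune cells, follows it at 3 numbers and had a log2 fold change of 0.89, while the gene before it, 4933416M06Rik, stood at -0.02. TC0800001595 read 9.87, 10.05 and 10.10 in sham against 7.40, 7.48 and 8.97 in MI (MI mean 7.95, so it entered through sham; -2.06 ± 0.42, adjusted p = 0.0446), 9 numbers after the cell polarity gene Pard3 (-0.22) and 2 before Gm26002 (0.76). TC1200000590, between Tmx1 (-0.07) and Gm24474 (-0.98), fell from 10.37, 10.28 and 10.72 to 8.15, 8.12 and 8.99 (-2.04 ± 0.27, adjusted p = 0.0196). These 3 members were chosen among those with groups that do not overlap, and the symbols on either side stood between -0.98 and 0.89.

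Further members among the 10 lowest follow. TC0300000324, next to D3Ertd751e (-0.58), read 9.02, 9.29 and 9.04 in sham and 7.42, 7.47 and 7.48 in MI, which gave -1.66 ± 0.11 (adjusted p = 0.00827). TC1200002399 fell by 1.92 on the log2 scale (SE 0.20, adjusted p = 0.0136), and TC0100002526, 16 numbers after Gm25542 (-0.17) and 5 before Gm8840 (0.40), fell by 1.62 (SE 0.18, adjusted p = 0.0147). The MI means of TC0300000324, TC1200002399 and TC0100002526 were under 8 (7.46, 7.87 and 7.67), so these entered through sham. In these 3 members MI 3 lay with the other MI arrays, unlike in most called members. TC0800000928 lies between D830024N08Rik (-1.14) and the heat shock protein gene Dnajb1 (-0.12), and read 12.13, 11.68 and 12.12 in sham against 10.18, 9.77 and 11.01 in MI (-1.65 ± 0.33, adjusted p = 0.0409).

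**Figure D3:**
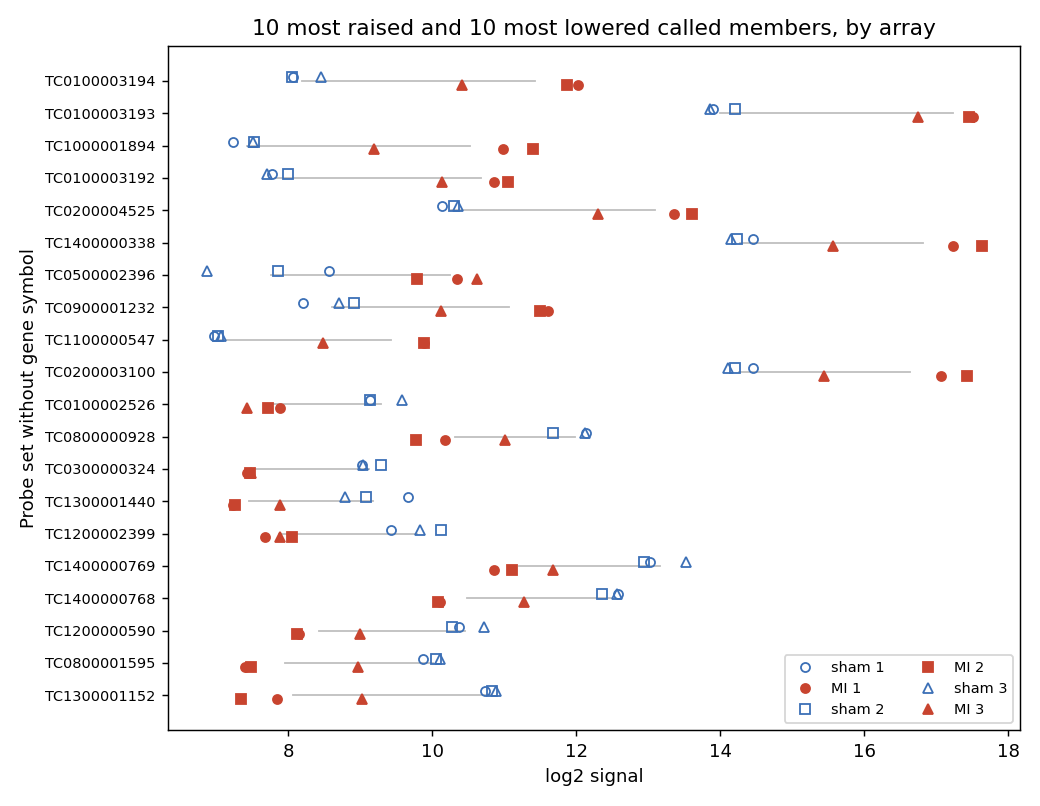
Log2 signal (x axis) on each array for the 10 called members with the highest and the 10 with the lowest log2 fold change (rows), with open blue symbols for sham, filled red symbols for MI and a grey line between the group means. The rows were selected to have groups that do not overlap, and MI 3 (red triangle) is often the MI array nearest to sham.

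Beside the myosin genes of chromosome 14, 2 members fell together. Mhrt is a long non-coding RNA of the heart transcribed from the myosin heavy chain locus, and its probe set read 9.33, 9.25 and 9.39 in sham and 7.66, 7.44 and 8.43 in MI (-1.48 ± 0.26, adjusted p = 0.0311). TC1400000768, 4 numbers after Mhrt, read 12.58, 12.35 and 12.56 in sham and 10.10, 10.08 and 11.27 in MI (-2.01 ± 0.33, adjusted p = 0.0281). TC1400000769 read 13.02, 12.94 and 13.52 against 10.86, 11.11 and 11.67 (-1.94 ± 0.26, adjusted p = 0.0196). The member just before them, TC1400000767, did not follow, at 9.53, 9.25 and 9.25 in sham and 9.29, 9.48 and 9.62 in MI (0.12 ± 0.13, adjusted p = 0.623). Ngdn, the next symbol after the pair, stood at -0.38 ± 0.12 (adjusted p = 0.127).

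Kcnd2 encodes a pore subunit of the transient outward potassium current, which shapes early repolarization in the mouse ventricle. Its probe set read 10.21, 10.42 and 10.61 in sham and 8.10, 8.05 and 9.24 in MI (-1.95 ± 0.34, adjusted p = 0.0303), and it is followed by 20 probe sets without symbol before Ing3 (-0.16 ± 0.15). In all 20 the highest MI value was below the lowest sham value, as in 16.8% of all probe sets tested, with log2 fold changes from -0.60 to -2.17. Of the 20, 19 were tested, 9 were called lower (against 3.64% of all probe sets tested) and 3 were members. TC0600000160 read 9.36, 9.47 and 9.11 in sham and 7.30, 7.65 and 8.30 in MI (-1.56 ± 0.26, adjusted p = 0.0295). TC0600000165 read 9.29, 8.97 and 9.43 against 7.55, 7.39 and 8.35 (-1.47 ± 0.28, adjusted p = 0.0364). TC0600000167 read 10.19, 9.79 and 10.07 against 7.92, 7.46 and 9.33 and was not called (-1.78 ± 0.47, adjusted p = 0.0791). MI 3 was again the highest MI array in all 3. The MI means of TC0600000160 and TC0600000165 were under 8, so both entered through sham and their calls are partly fixed by the choice. The stretch was picked after its values were seen, and whether these probe sets lie inside the transcript of Kcnd2 is not known here.

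The beginning of Kcnd2 is shown because of the members and other probe sets that follow it. The promoter window of RefSeq (GRCm38.p6, chr6:21215096-21215395, plus strand, 300 bases from before to after the start of the gene) was searched on both strands for CANNTG, the E-box motif, which it does not hold.
Kcnd2: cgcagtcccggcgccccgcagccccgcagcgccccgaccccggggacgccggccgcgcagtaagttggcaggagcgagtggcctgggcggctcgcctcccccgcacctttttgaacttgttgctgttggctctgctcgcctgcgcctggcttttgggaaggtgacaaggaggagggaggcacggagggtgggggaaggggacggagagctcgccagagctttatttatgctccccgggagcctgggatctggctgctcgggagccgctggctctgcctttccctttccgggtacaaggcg
Of 32851 mouse promoter windows of this length, 72.3% hold this motif.

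Ryr2 encodes the calcium release channel of the sarcoplasmic reticulum. Its own probe set read 16.59, 16.71 and 16.64 in sham and 15.62, 15.40 and 16.25 in MI and was not called (-0.89 ± 0.22, adjusted p = 0.0683). TC1300001440, 2 numbers after it, entered through sham (MI mean 7.46) and read 9.66, 9.08 and 8.79 in sham and 7.23, 7.26 and 7.89 in MI (-1.72 ± 0.28, adjusted p = 0.0272). The members on its sides, TC1300001439 (11.40, 10.55 and 10.41 against 9.36, 9.80 and 9.60) and TC1300001442 (11.76, 11.76 and 11.67 against 9.32, 9.68 and 11.36), stood at -1.20 ± 0.28 and -1.61 ± 0.51 (adjusted p = 0.0596 and 0.122). In all 3 members the highest MI value was below the lowest sham value, as in 16.8% of all probe sets tested. For TC1300001440 this was a condition for its choice, and TC1300001439 and TC1300001442 were not called.

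Beside Ppargc1a the members moved against the gene. Ppargc1a encodes a transcriptional coactivator of mitochondrial biogenesis and oxidative metabolism, and its probe set read 14.88, 15.46 and 15.19 in sham and 13.74, 13.51 and 13.96 in MI (-1.44 ± 0.19, adjusted p = 0.0196). TC0500002396, 2 numbers after it, entered through MI (sham mean 7.76) and rose from 8.57, 7.85 and 6.87 in sham to 10.34, 9.79 and 10.62 in MI (2.48 ± 0.45, adjusted p = 0.0330). As Ppargc1a is on the minus strand, higher numbers lie towards or beyond its start in this order. TC0500002395, the first after the gene, rose from 9.44, 9.06 and 8.89 to 10.33, 9.76 and 10.29 (1.0 ± 0.21, adjusted p = 0.0486). Here MI 3 was not the lowest MI array, unlike in the other members among the 10 highest. The next 4 probe sets after them read under 5 on every array and were below the filter.

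The promoter window of Ppargc1a (RefSeq, GRCm38.p6, chr5:51567676-51567975, minus strand, printed along the gene) is shown for this opposite pair, with its 6 matches to CANNTG in capitals.
Ppargc1a: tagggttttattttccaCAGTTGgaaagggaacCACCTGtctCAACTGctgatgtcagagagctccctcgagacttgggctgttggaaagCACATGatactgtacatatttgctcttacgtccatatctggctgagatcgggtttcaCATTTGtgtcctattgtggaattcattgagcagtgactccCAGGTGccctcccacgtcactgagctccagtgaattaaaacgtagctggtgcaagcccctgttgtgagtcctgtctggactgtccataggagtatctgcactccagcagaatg

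**Figure D4:**
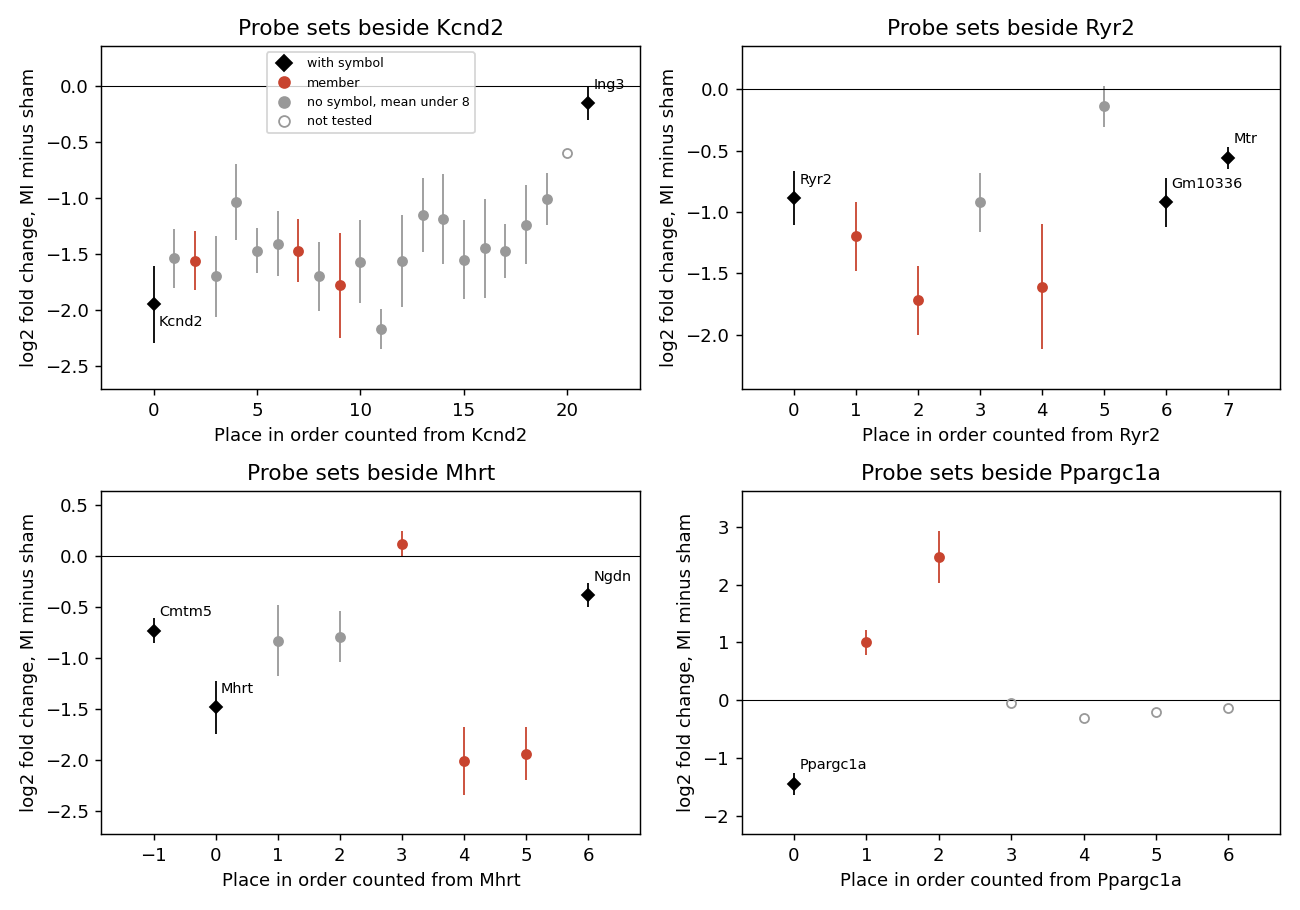
Log2 fold change (MI minus sham, y axis) of consecutive probe sets by their place in order counted from Kcnd2, Ryr2, Mhrt or Ppargc1a (x axis), with the SE from limma as error bars. Diamonds carry a symbol, red circles are members, grey circles have no symbol and a mean signal under 8, and open circles were not tested. The probe sets after Kcnd2 all lie below 0 and those next to Ppargc1a (1.0 and 2.48) lie above 0.

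Members within 2 numbers of a listed gene were counted for 2 gene lists. Of 17 members near a cardiomyocyte gene, 5 were called lower and 2 higher, and their median log2 fold change was -0.57, against 0.11 over all members. The called shares over all probe sets tested were 3.64% lower and 2.97% higher. Within 5 numbers there were 30 members (5 lower, 2 higher, median -0.17) and within 10 numbers 39 (6 lower, 2 higher, median -0.16). The 2 raised ones are those beside Ppargc1a, of which TC0500002396 entered through MI. The lowered ones include TC0500001378, just before the ventricular myosin light chain gene Myl2, at 10.98, 11.04 and 11.10 in sham and 9.92, 9.88 and 10.12 in MI (-1.06 ± 0.10, adjusted p = 0.0128), where Myl2 itself was not called (-0.33, adjusted p = 0.178). TC0600003004 and TC0600003007, numbered before and after the L-type calcium channel gene Cacna1c (-0.64, adjusted p = 0.0312), stood at -0.84 ± 0.14 and -0.72 ± 0.08 (adjusted p = 0.0302 and 0.0155). Those beside Kcnd2 and Ryr2 complete the 5, and both entered through sham. TC0500003213, the first after the calcium pump gene Atp2a2 (-0.08, adjusted p = 0.592), read 11.46, 10.98 and 10.82 in sham and 10.27, 9.63 and 10.67 in MI and was not called (-0.90 ± 0.30, adjusted p = 0.134).

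Near the matrix genes, which hold the collagens and their partners, 4 members lay within 2 numbers and none was called, with a median of 0.24. Col3a1, the chain of type III collagen, was 4.14 higher in MI (adjusted p = 0.0125), while TC0100000344 and TC0100000345 after it stood at 0.44 ± 0.11 and -0.14 ± 0.48 (adjusted p = 0.0744 and 0.884). TC1300000570, after the small leucine-rich proteoglycan gene Ogn (1.66, adjusted p = 0.00827), read 16.31, 16.13 and 16 in sham and 16.56, 16.15 and 16.12 in MI (0.13 ± 0.16, adjusted p = 0.655). TC0400000516, before Col15a1 (1.23, adjusted p = 0.147), stood at 0.34 ± 0.20 (adjusted p = 0.340). The values of TC0100000345 were shared by 3 members on 3 chromosomes, so they need not come from beside Col3a1. The same holds for TC0100000346, 3 numbers after Col3a1, at 0.91 ± 0.38 (adjusted p = 0.211). TC0100000344 and TC1300000570 showed differences far smaller than those of Col3a1 and Ogn, in the same arrays.

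Members that neighbour each other tended to have like differences. Over 305 pairs with consecutive numbers on the same strand, the log2 fold changes of the 2 members correlated with a Pearson r of 0.709 (Spearman 0.647), and 75.7% of pairs had the same direction. The correlation was 0.665 over 207 pairs at 2 numbers, 0.388 over 465 pairs at 3 to 5 numbers, 0.106 over 603 pairs at 6 to 10 numbers and 0.001 over 1023 pairs at 11 to 20 numbers. Pairs with identical values were left out. All pairs share the same 6 arrays, and a member enters several pairs, so these are descriptions with no p. With the nearest tested probe set that has a symbol, the correlation was 0.284 over 1215 members. Of these, 56.7% had the same direction, a share close to the 54.0% to 56.1% of pairs of members more than 20 numbers apart. By distance the share was 55.1% at 1 number, 60.3% at 2 to 5 and 48.4% at 6 to 20. Over the 84 called members among them the correlation was 0.397, with 71.4% in the same direction.

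**Figure D5:**
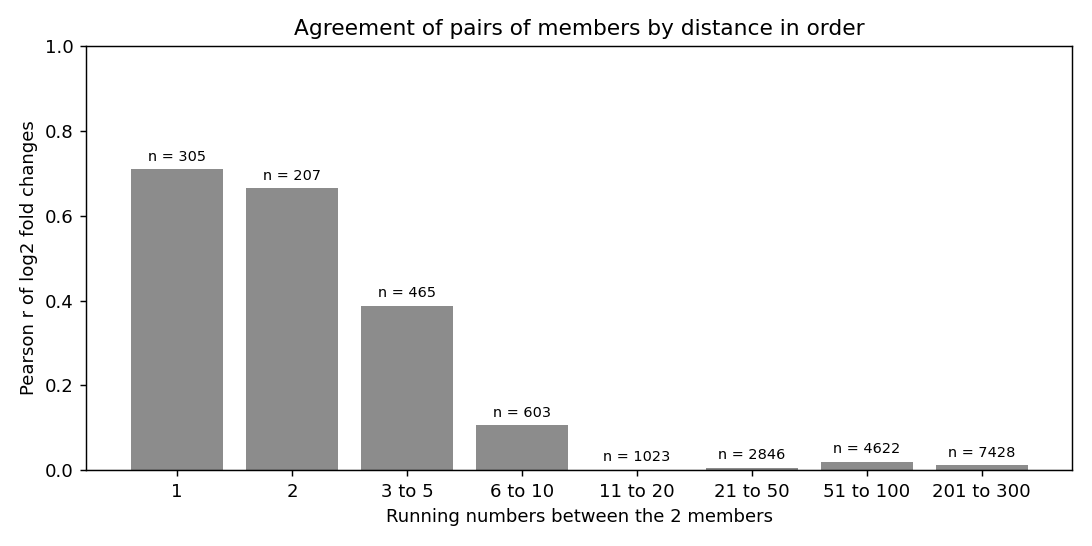
Pearson correlation of the log2 fold changes of 2 members (y axis) by the difference of their running numbers on the same strand of a chromosome (x axis), with the number of pairs above each bar. The bars fall from 0.709 for consecutive numbers to 0.001 at 11 to 20 numbers.

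Called members with numbers at most 2 apart and the same direction formed 13 runs holding 28 members, 7 runs upwards and 6 downwards. Besides the 3 on chromosome 1, the only run of 3 lay on chromosome 8 between Dlc1 and G630064G18Rik. Dlc1 itself stood at -0.26. TC0800002077 read 12.64, 12.53 and 12.40 in sham and 11.41, 11.82 and 11.59 in MI (-0.92 ± 0.14, adjusted p = 0.0234). TC0800002074 and TC0800002075 stood at -0.77 ± 0.16 and -0.75 ± 0.16 (adjusted p = 0.0449 and 0.0486). The same stretch held a further run of 2, TC0800002069 and TC0800002071 (-0.73 and -0.87), and the latter entered through sham. Thus 5 of its 9 members were called lower, against 3.64% of all probe sets tested, in a stretch picked for its calls.

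Several runs were upwards. TC0300000389 and TC0300000391, between Lhfp and Gm16206, rose by 1.45 ± 0.23 and 1.37 ± 0.21 (adjusted p = 0.0266 and 0.0239). TC1500001514 and TC1500001515, after Ext1, which encodes a heparan sulfate polymerase, rose by 0.72 ± 0.11 and 0.80 ± 0.15 (adjusted p = 0.0247 and 0.0376), and Ext1 itself stood at 0.57. All 8 probe sets without symbol in the Ext1 stretch had a positive difference. So did all 11 after Ebf1 (0.39), a transcription factor of lymphoid and mesenchymal cells. Of the 4 members after Ebf1, 2 were called higher, against 2.97% of all probe sets tested. A pair on chromosome X, TC0X00001966 and TC0X00001967, rose by 0.67 ± 0.09 and 0.68 ± 0.10, and their 6 array values differed by less than 0.1. The sham means of TC0300000391 and TC1500001515 were under 8, so both entered through MI and their runs are partly fixed by the choice.

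Some long stretches held many members and no call. After Pcdh7, a protocadherin gene (-0.81), all 9 members had a negative log2 fold change, with a median of -0.86. After Slc8a1, the sodium-calcium exchanger gene of cardiomyocytes (-0.18), 13 members had a median of 0.21, within the quartiles over all members. After Airn, an imprinted non-coding RNA (-0.08), 8 members had a median of -0.24, 7 of them below 0 and 1 above. Of 79 stretches with at least 3 members between 2 neighbouring symbols, 39 had all members on 1 side of 0.

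At the signal threshold, the 3 members just inside it had log2 fold changes of -0.72 (TC0600003010), 0.84 (TC1000000022) and 0.44 (TC1300002511). The 3 probe sets just outside stood at 0.47 (TC0300000027), -0.66 (TC1100003027) and -0.66 (TC0300002909), and the mean signal of all 6 rounds to 8. In 340 members at least 1 array read under 8, and in 1 member an array read under 6.08, the highest value of a background control.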

How the data were processed

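Total RNA of 3 MI and 3 sham samples was measured on 1-colour mouse transcriptome arrays. The authors deposited log2 signals, made by RMA with SKETCH quantile normalization in Affymetrix Expression Console, which the methods name as EC 2.0. For the array annotation the genome build is not stated in these sources. Of 72688 rows, 6732 control probe sets were left out, and 0 columns belonged to other samples. Values were used as deposited.

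Members had no gene symbol and a mean log2 signal of at least 8. Members, gene lists and tests were chosen with earlier results of these data known. Probe sets with a mean at or above the 50th percentile (4.36) were fitted by lmFit and eBayes of limma 3.58.1 (R 4.3.3), two-sided and without covariates, and p-values were adjusted by Benjamini-Hochberg over the 32979 tested. A log2 fold change is the MI mean minus the sham mean on the deposited scale. With 3 against 3 an exact permutation test of 1 value cannot go below 0.1, so none was used. The number of arrays limits the precision, and no 2 arrays held the same values.

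Named members are the 10 highest and 10 lowest called ones with groups that do not overlap, the 5 of highest signal, runs of 3, those at the threshold, the 3 of largest MI 3 deviation and up to 5 near each gene list. Others were chosen after their values were seen. Gene symbols came from the platform table, and order, promoters and names from RefSeq (GRCm38.p6). Surroundings were described by the nearest symbols on the same strand, where no protein-coding gene missing from the platform table lay in or close to the interval. Listed genes on the other strand and non-coding genes missing from that table were not checked. Cell type markers were lists of cardiomyocyte, fibroblast, endothelial, smooth muscle and pericyte, macrophage, lymphocyte, red blood cell, adipocyte, Schwann cell, atrial and skeletal muscle genes. The equal-variance t-test of the methods, other filters, scalings, array weights, a replicate block and left-out arrays were alternatives. The limma step was tested on simulated data. Tables and figures used Python 3.11.15, pandas 2.3.3, numpy 2.4.6, scipy 1.17.1 and matplotlib 3.10.9.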

Additional observations from a re-analysis of the deposited data

How the results depend on the processing

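The counts of called members moved with the test and with single arrays. The equal-variance t-test called 8 members higher and 5 lower, 4 of each at least 2-fold. Array weights gave 645 and 334, with 93 and 107 at least 2-fold. Quantile normalization gave 46 higher and 23 at least 2-fold higher. With the replicate number as a block, 0 members were called in either direction or at least 2-fold, with 344 higher and 228 lower at an unadjusted p under 0.05. Same-numbered arrays deviated with correlations of -0.287, 0.352 and -0.374, and sham 1 with MI 3 at 0.499. Deviations from a mean of 3 arrays depend on each other, so these values cannot tell whether the numbers pair the samples. The cause of the lost calls was not tested. Leaving out 1 array at a time gave 0 to 200 members higher, 0 to 193 lower, 0 to 90 at least 2-fold higher and 0 to 102 at least 2-fold lower, and the median log2 fold change over the members ran from 0.09 to 0.13. Leaving out sham 1 and MI 3 together, chosen after seeing the data, gave 209 and 199, with 94 and 95 at least 2-fold. Adjustment over the probe sets without symbol gave 50 lower, a signal limit of 7 gave 136 lower and a limit of 9 gave 46 lower. The median over the members was -0.009 after quantile normalization, where that over all probe sets tested was -0.032.

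The correlation with the nearest symbol was 0.511 over the 31 members at 6 to 20 numbers, where the Spearman correlation was 0.299 and 48.4% had the same direction, and no member lay further away. Runs numbered 9 to 16 under the other limits and scalings. The 23 called named members kept their direction in all 322 comparisons with an alternative, and the call in 161. Their groups did not overlap, so leaving out or weighting arrays could not reverse a direction. Other tests and filters left the difference itself unchanged, so only the scalings could have changed a direction. All 23 kept it with the 75th percentile filter, array weights and without MI 3, 17 without a filter and 2 by the t-test.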
